A study of Fukomys damarensis and Heterocephalus glaber and Cavia porcellus with 28 samples.

Results

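The livers of 5 Damaraland mole-rats (Fukomys damarensis) were compared with the livers of 2 mice (Mus musculus), 7 of the 28 heart and liver samples of a study of expression evolution in mole-rats that also sampled the naked mole-rat and the guinea pig. All genes of the liver table were taken. Of its 13916 nuclear genes, 10763 had a mean over the 7 libraries of at least 5.29, which is 1 above the value given to 0 reads, and these were tested. The other 3153 were too low to test, and the 12 genes of the mitochondrial genome were set apart. The means of the genes next to that limit were 5.2893 inside and 5.289 outside.

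The Damaraland livers came from 4 males and 1 female: replicates 1, 2 and 3 were males labelled 36 months old, replicate 4 was a female of 48 months and replicate 5 a male of 48 months. Replicate 3 is the animal whose heart carries an age of 48 months in its label, so its age is uncertain. Both mice were males of 2 months. The labels name no genotype, mouse strain or treatment for these animals. The naked mole-rat livers used beside them were from animals of 13 to 17 months, and the guinea pig livers from animals of 2.3 months. The hearts were from Damaraland mole-rats labelled 36 or 48 months and from mice of 2 months. Every Damaraland liver came from an older animal than every mouse liver, so species and age cannot be told apart, and 2 mice give a narrow view of the spread in that species. All libraries were made from ribosomal-RNA-depleted total RNA of frozen tissue, and each of the 7 livers came from a separate animal.

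The liver makes most plasma proteins, stores and releases glucose, builds and burns fat, converts cholesterol to bile acids, turns ammonia into urea and clears foreign compounds. Hepatocytes do most of this work and divide it along the lobule: cells near the portal vein favour urea and glucose production, and cells near the central vein favour cytochrome P450 reactions. Mole-rats are long-lived burrowing rodents that feed on roots and tubers, and the laboratory mouse is a short-lived rodent of a distant branch.

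The deposited values are variance-stabilised, which makes them close to log2 for abundant genes and compressed for rare ones. In liver, going from 1000 scaled reads to 2-fold more moved the value by 0.973, and the same step from 10 scaled reads moved it by 0.392. Scaled reads are the reads recovered from these values divided by the library's size factor. A gene with 0 reads has the value 4.29. Differences below are Damaraland minus mouse on the deposited scale with the limma standard error (SE), and fold ratios are of mean scaled reads. Gene length can differ between species. No correction for it was made here, and whether the deposited values already hold one is not given in the sources used here. How genes were assigned across species is not given there either. A gene is called at an adjusted p under 0.05 with a difference of at least 1 in either direction.

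Depth was alike in both species, from 11704633 to 18044619 recovered reads in Damaraland and 11220505 and 18366998 in mouse. Hepatocyte markers were abundant in all 7 libraries. Of 10 tested, 2 were lower (20%, against 18.6% of all tested genes), none was higher (against 22%) and 8 were not called. Albumin (Alb) had values of 20.50, 20.72, 20.51, 20.87 and 20.42 in Damaraland and 19.77 and 19.59 in mouse, a difference of 0.92 with an adjusted p of 0.0771. The hepatocyte regulator Hnf4a had a difference of 0.11 (SE 0.19). Damaraland replicate 5 stood apart from the other 4 Damaraland livers in 454 genes by Dixon's test, against 60 to 128 genes for each of the others. In all, 765 genes (7.11% of those tested) had such a library, and chance gives about 1 in 20.

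Between the livers of these species, 4366 of the 10763 genes were called, which is 40.6% of those tested. Of these, 2363 were higher in Damaraland (22% of those tested) and 2003 were lower (18.6%). These shares are the background for the counts in gene lists, and a list near them shows nothing particular to it. The libraries of the 2 species did not overlap in 7459 of all tested genes (69.3%), and in 4335 of those called. The median difference over all tested genes was 0.06 and the median absolute difference was 0.79. Of the tested genes, 1151 had the mean of 1 species under 5.29 and so entered through the other species alone, and 895 of them were called. Genes named below that entered through Damaraland alone include Npas2, Hnf4g, Plat, Slc51b, Mogat1, Adipoq and A2m. Those that entered through mouse alone include Elovl3, Aldoc, Slc1a2, Ifit3, Rrm2 and Crp. Among the genes called, 688 were higher with the mouse mean under 5.29 and 207 were lower with the Damaraland mean under 5.29. With those set aside, 1675 genes were higher and 1796 lower, so the split between directions turned. Differences of at least 3 were found for 336 genes in the higher direction and 259 in the lower.

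**Figure D1:**
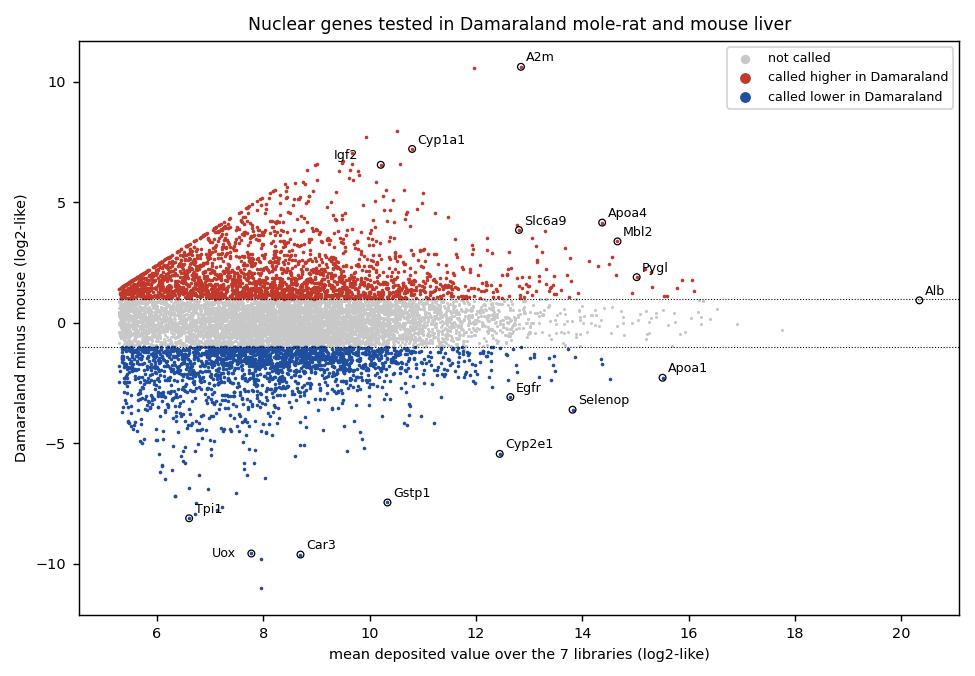
Difference between species (vertical axis, Damaraland minus mouse, log2-like) against the mean value over the 7 liver libraries (horizontal axis, log2-like) for the 10763 tested genes. Red and blue points are the 2363 genes called higher and the 2003 called lower in Damaraland, dotted lines mark differences of 1 and -1, and the straight upper and lower left edges are genes near 0 reads in 1 species.

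The largest differences among genes measured in both species covered foreign-compound metabolism, serine synthesis, growth factors and lipid metabolism. Cyp1a1, a cytochrome P450 that oxidises polycyclic aromatic compounds, had values of 12.44, 14.01, 11.90, 13.71 and 12.24 in Damaraland and 5.73 and 5.58 in mouse. All 5 Damaraland livers were more than 6 units above both mice, and the ratio of mean scaled reads was 463 (difference 7.20, SE 0.46, adjusted p 5.13e-10). Cyp1a2, its paralog that is normally the liver-enriched member, differed less: it was at 15.24 to 16.29 in Damaraland and at 14.19 and 14.37 in mouse, a difference of 1.46. Ahr, the receptor that switches both genes on, was also called higher.

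Enzymes that make serine from a glycolytic intermediate were much higher in Damaraland liver. Phgdh, which takes the committing step, had values of 12.04, 11.11, 11.75, 11.72 and 11.13 against 5.73 and 5.15 in mouse. Psat1, which takes the next step, had values of 11.47, 11.41, 11.20, 11.46 and 11.09 against 5.33 and 5.34. For both genes the mouse livers were low and the species were far from overlapping, with ratios of 214 for Phgdh and 237 for Psat1. The Phgdh ratio rested on the mice: it was 421 without mouse replicate 1 and 144 without mouse replicate 2. Psph, which completes the route, was looked up after these values were seen: it was at 8.93 to 9.46 in Damaraland and at 6.52 and 6.56 in mouse (difference 2.75, SE 0.35, adjusted p 2.76e-06). Shmt2, the mitochondrial enzyme that interconverts serine and glycine and was looked up in the same way, was lower, with a difference of -1.66. Slc6a9, a glycine transporter, was at 13.77, 13.85, 13.74, 14.08 and 14.10 in Damaraland and at 9.90 and 10.23 in mouse, a ratio of 14.8.

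Growth factors and cell-surface receptors moved in both directions. Igf2, a fetal growth factor, had values of 11.41, 12.26, 11.84, 12.54 and 12.36 in Damaraland and 6.05 and 5.02 in mouse, a ratio of 234 that was 879 without mouse replicate 1 and 135 without mouse replicate 2. Gpc3, a heparan sulphate proteoglycan of the fetal liver, was at 11.02 to 11.60 against 5.33 and 5.58. Igf1, the growth hormone-dependent factor of the adult liver, went the other way, with values of 11.94, 11.69, 11.98, 12.03 and 10.96 against 13.54 and 13.80 (difference -1.95, SE 0.26). No Damaraland liver reached the mouse level of Igf1, and none was as low as the mouse in Igf2 or Gpc3.

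Igfbp3, which carries both factors in plasma, was at 12.37 to 13.04 in Damaraland and at 8.29 and 8.39 in mouse. In the list for the growth hormone and IGF axis, 3 of 21 tested genes were higher (14.3%, against 22% of all tested genes). They were Igf2, Igfbp3 and Insr, the insulin receptor. Another 4 were lower (19%, against 18.6%): Prlr, the prolactin receptor, with a difference of -4.40, Igf1, Socs2 and Stat5b. The median difference of the list was 0.36. Among 18 tested proliferation and perinatal liver genes, 4 were higher (Igf2, Gpc3, Dlk1 and Igf2bp3), which is 22.2% against 22% of all tested genes. Another 1, the nucleotide-synthesis gene Rrm2, was lower (5.56%, against 18.6%). In 4 of the 18 the mean of 1 species was under 5.29. Dlk1 had 0 reads in both mice and passed the filter through Damaraland alone.

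Of the epidermal growth factor receptor family, Erbb2 was higher and Egfr lower. Erbb2 was at 11.67, 11.85, 11.68, 12.22 and 11.56 in Damaraland and at 6.0 and 5.93 in mouse, a difference of 5.83 (SE 0.20). Egfr was at 11.94, 11.86, 11.58, 11.79 and 11.67 in Damaraland and at 14.82 and 14.89 in mouse, a difference of -3.08 (SE 0.17). The libraries of the 2 species did not overlap for either receptor.

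Other genes with very large increases were Slc39a5, a zinc importer (11.45 to 11.68 against 5.43 and 5.15), Sorl1, a sorting receptor (12.04 to 12.32 against 6.78 and 6.65), and Kif26a, a kinesin-family gene (11.67 to 12.18 against 6.57 and 6.21). Among genes with a mean over the 7 libraries of at least 10.77, Acsm2, a medium-chain acyl-CoA synthetase, had a ratio of 51.7, and of 90.8 without mouse replicate 2. In that same group, Atp8a1, a phospholipid flippase, had a ratio of 37.4 (58.2 without mouse replicate 1), and Anxa2, a membrane-binding annexin, had a ratio of 34.2. Msrb2, which repairs oxidised methionine in mitochondria, had a ratio of 27.2. Acsm2 belongs to a family of near-identical neighbours, so its reads may be shared with paralogs.

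**Figure D2:**
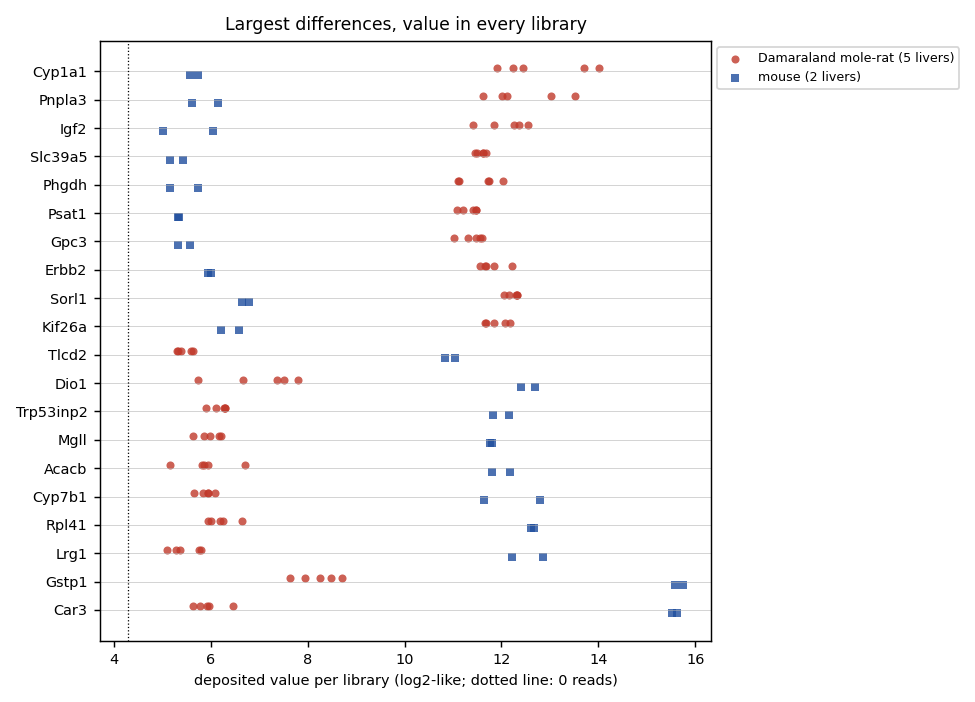
Deposited value in each library (horizontal axis, log2-like) for the 10 largest increases and 10 largest decreases among genes measured in both species, with red circles for the 5 Damaraland livers, blue squares for the 2 mouse livers and a dotted line at 0 reads. In every gene the species are separated, and the Damaraland values of Dio1 run from 5.73 to 7.80, a wider range than those of Tlcd2 at 5.30 to 5.64.

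On the lower side, Car3, a carbonic anhydrase abundant in mouse liver and fat, was at 6.46, 5.79, 5.92, 5.62 and 5.97 in Damaraland and at 15.62 and 15.53 in mouse, a 1602-fold lower mean of scaled reads. Gstp1, a glutathione transferase, was at 8.71, 7.95, 8.48, 8.26 and 7.63 against 15.75 and 15.58, which is 194-fold lower. Gstp1 has a close copy in the mouse genome, so the mouse reads may come from either. The naked mole-rat livers differed between these genes, with a mean of 15.63 for Car3 and 7.79 for Gstp1.

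Dio1, which converts thyroxine to active thyroid hormone, was 54.7-fold lower. Its values were 5.73, 7.51, 6.67, 7.36 and 7.80 in Damaraland and 12.70 and 12.40 in mouse. Damaraland replicate 1 was the lowest, and none came near the mouse. Lrg1, a secreted acute-phase glycoprotein, was at 5.10 to 5.80 against 12.85 and 12.22. Trp53inp2, an autophagy regulator, was at 5.89 to 6.30 against 11.82 and 12.15. Tlcd2, a membrane lipid gene, was at 5.30 to 5.64 against 11.04 and 10.83. Among genes with a mean of at least 10.77, Selenop, the plasma selenium carrier, was 12.0-fold lower. Pigr, which carries antibodies into bile, was 17.1-fold lower. Cyp4v3, a fatty acid hydroxylase, was 8.35-fold lower.

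Genes of lipid synthesis were called in both directions. Of 25 tested genes of fatty acid and triglyceride synthesis, 7 were higher (28%, against 22% of all tested genes) and 8 lower (32.0%, against 18.6%), with a median difference of -0.36. In palmitate synthesis Acaca and Fasn were higher, while Acly, which supplies cytosolic acetyl-CoA, was lower (-1.49). Among triglyceride-forming genes Mogat1, Dgat1 and Dgat2 were higher and Agpat2, an acyltransferase of the same route, was lower (-4.57). Elovl6 was higher. Fasn was at 15.20 to 16.26 in Damaraland and at 13.41 and 14.17 in mouse. The other lower genes included the desaturases Fads1 and Fads2 and the elongases Elovl2, Elovl3 and Elovl5, which make long and polyunsaturated chains.

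Acacb, whose product malonyl-CoA restrains fatty acid oxidation, was at 5.95, 5.81, 5.87, 5.16 and 6.71 in Damaraland and at 11.80 and 12.17 in mouse, 130-fold lower. Pnpla3, a lipid droplet protein, was at 13.52, 12.02, 13.02, 11.62 and 12.12 against 5.61 and 6.14, a ratio of 231 that was 357 without mouse replicate 2. Mgll, a monoacylglycerol lipase, was 115-fold lower, at 5.63 to 6.21 against 11.77 and 11.81. The species were apart in all these genes, and the Damaraland livers spread most in Pnpla3, from 11.62 to 13.52.

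Fatty acid oxidation was mixed, with 6 of 31 tested genes higher (19.4%, against 22% of all tested genes) and 9 lower (29.0%, against 18.6%). Ehhadh, a peroxisomal enzyme, had a difference of 2.55. Cpt1a, Cpt2 and Acadvl, which serve mitochondrial oxidation, were among the lower genes. Acsl1 and Ppargc1a were among the higher.

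Of 27 tested cholesterol genes, 11 were higher (40.7%, against 22% of all tested genes), 2 were lower (7.41%) and 14 were not called, with a median difference of 0.95. The higher genes included Hmgcs1, Mvd, Fdft1, Sqle, Lss, Cyp51, Msmo1 and Hsd17b7 of the synthetic route and Srebf2 and Insig1 of its control. Mvd was at 10.67, 11.37, 10.84, 10.80 and 11.12 in Damaraland and at 7.02 and 7.92 in mouse. Lss was at 12.56 to 13.15 against 8.81 and 10.71, so the mice were far apart in this gene and still lay below every Damaraland liver. The lower genes were Sc5d, a late enzyme of the route, and Abcg5, a sterol exporter.

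Bile acid genes numbered 9 higher (45.0%, against 22% of all tested genes) and 5 lower (25%, against 18.6%) of 20 tested, with a median difference of 0.80. Cyp7a1, the rate-limiting enzyme of the classic route, was at 10.15, 11.99, 10.56, 11.14 and 10.39 in Damaraland and at 9.53 and 10.37 in mouse, with a difference of 0.89 (SE 0.61) that did not pass (adjusted p 0.207). Cyp27a1, which starts the alternative route, was higher, but Cyp7b1, its following step, was at 6.09, 5.94, 5.65, 5.94 and 5.83 against 12.80 and 11.63, 191-fold lower (117-fold without mouse replicate 1). Slc51b, a bile acid exporter subunit, and Cyp39a1 were higher, by 3.53 and 2.72. Scp2, a sterol carrier that is also a peroxisomal thiolase, was lower, with a difference of -2.34.

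Of 21 apolipoprotein and lipoprotein genes, 4 were higher (19%, against 22% of all tested genes) and 6 lower (28.6%, against 18.6%). Apoa1, the main protein of high-density lipoprotein, was at 14.65, 14.81, 14.83, 15.03 and 14.96 in Damaraland and at 17.26 and 17.03 in mouse, a difference of -2.29 (SE 0.34). Apoa4, its neighbour gene and a lipoprotein component tied to fat transport, went up: it was at 16.11, 15.39, 15.90, 15.48 and 14.92 against 11.55 and 11.27, a ratio of 18.6. Apoc4 was 15.0-fold lower, and Apoc3, in the same gene cluster as Apoa1, was higher. Angptl8, an inhibitor of lipoprotein lipase, had a difference of 2.86.

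Foreign-compound metabolism genes divided into 7 higher (35.0%) and 5 lower (25%) of 20 tested phase I genes, and 1 higher (10.0%) and 6 lower (60.0%) of 10 tested conjugating genes, against 22% and 18.6% of all tested genes. The mean of 1 species was under 5.29 for 2 genes in each list. Only 21 of 51 listed phase I genes and 11 of 41 conjugating genes were in the table. Cyp2f2 was at 4.87 to 5.38 in Damaraland and at 14.73 and 15.16 in mouse, 4143-fold lower. Ephx1, Aox1 and Cyp26a1 were higher, and Cyp2u1 and Adh5 lower. Among conjugating genes, Gstt3 was higher by 3.22. The lower genes included Gstp1, Sult1d1, Tpmt, Gstt1 and Mgst1. Sult1d1 had 0 reads in all 5 Damaraland livers, so against 3 reads over the group it was at least 3242-fold lower.

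Cyp2e1, the ethanol- and acetone-oxidising P450 of pericentral hepatocytes, had the widest spread of all tested genes among the Damaraland livers. It was at 8.24, 7.55 and 8.55 in replicates 1, 2 and 3, labelled 36 months, and at 14.98 and 15.15 in replicates 4 and 5, labelled 48 months. The age of replicate 3 is uncertain, because its heart is labelled 48 months, so the split by age is uncertain too. The mice, at 2 months, were at 16.73 and 15.95, above every Damaraland liver. The difference was -5.44 (SE 1.60, adjusted p 0.00677), and without mouse replicate 1 it was -5.06 with an adjusted p of 0.0632. Without the 48-month livers, an alternative chosen after seeing these values, it was -8.23.

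The other genes of zonation did not move as a block. Of 16 tested pericentral genes 3 were higher (Rhbg, Cyp1a2 and Cyp27a1) and 3 lower (Slc1a2, Cyp2e1 and the zonation regulator Tbx3), 18.8% each and near the shares over all genes. Of 16 tested periportal genes 2 were higher (12.5%, against 22% of all tested genes) and 7 lower (43.8%, against 18.6%), with a median difference of -0.83. In 2 of the 16, Cyp2f2 and Uox, the Damaraland mean was under 5.29. The lower genes included Cyp2f2, Pigr, Hal, Gls2, Ass1 and Slc7a2. Uox, urate oxidase, which breaks down uric acid, was in this list as well, at 4.77, 5.47, 4.84, 5.03 and 5.10 in Damaraland against 14.78 and 14.45 in mouse, 4136-fold lower. All 5 Damaraland livers were near 0 reads for it, the guinea pig livers had a mean of 11.36 and the naked mole-rat livers 7.23. Cdh1, a periportal adhesion gene, was higher by 1.10 and fell to 0.995, under the size limit, without Damaraland replicate 2.

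**Figure D3:**
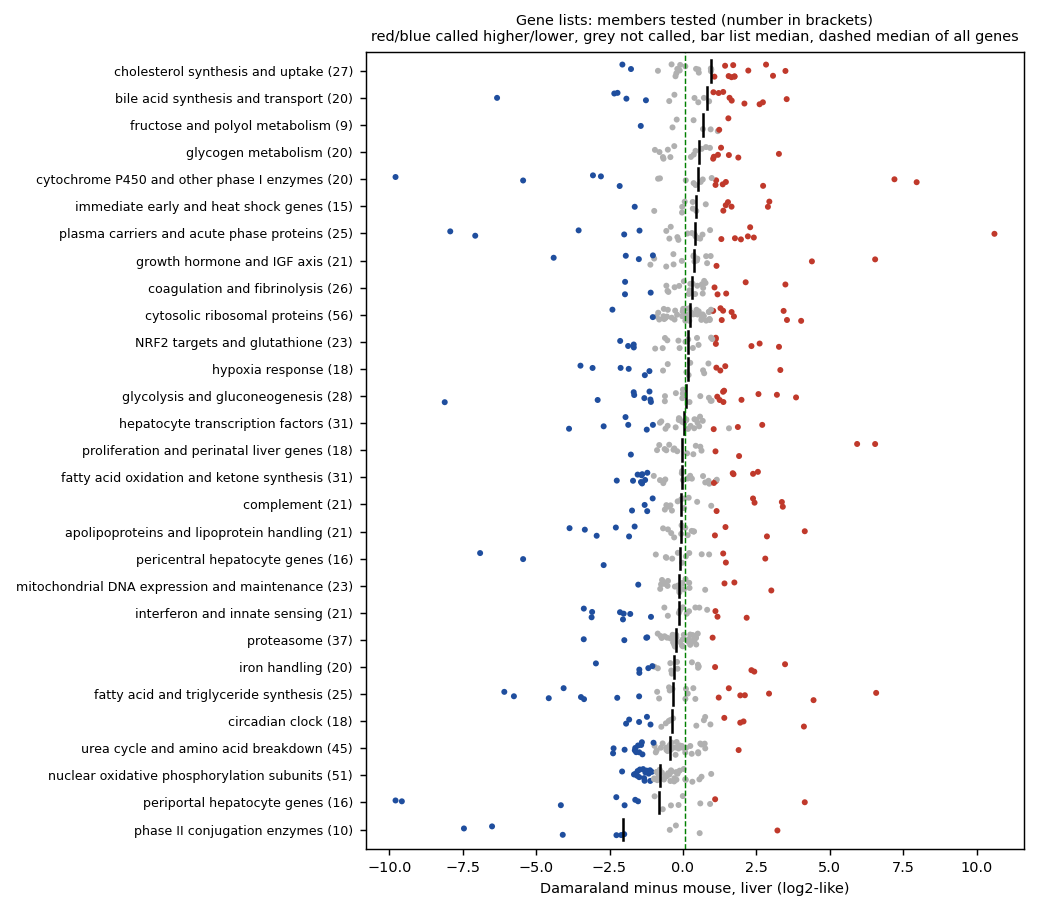
Differences between species (horizontal axis, Damaraland minus mouse, log2-like) for each tested member of 29 gene lists, with the number tested in brackets. Red and blue points are genes called higher and lower, black bars are list medians and the dashed green line is the median of all tested genes at 0.06. The conjugating enzymes, periportal genes and oxidative phosphorylation subunits have the lowest medians (-2.05, -0.83 and -0.79), and cholesterol synthesis the highest (0.95).

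Of 45 tested genes of amino acid breakdown and the urea cycle, 12 were lower (26.7%, against 18.6% of all tested genes) and 1, Cth of cysteine synthesis, was higher (2.22%, against 22%), with a median difference of -0.45. The methyl-group enzymes Ahcy and Gnmt were lower, with differences of -2.38 and -2.36. Ass1 and Otc of the urea cycle, Hal of histidine breakdown, Tat of tyrosine breakdown and Tdo2 and Kmo of tryptophan breakdown were also lower. Cps1, which admits ammonia to the cycle, was at 15.56, 15.62, 15.32, 15.27 and 15.26 in Damaraland and at 16.25 and 16.49 in mouse. Its species did not overlap, but its difference of -0.97 (SE 0.24, adjusted p 0.00214) lay just under the size limit, and it passed that limit without Damaraland replicate 1 (-1.004), Damaraland replicate 2 (-1.02) or mouse replicate 1 (-1.09), and with quantile normalisation (-1.44).

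In glucose metabolism, glycogen genes were higher or not called. Of 20 tested, 7 were higher (35.0%, against 22% of all tested genes, among them Pygl, Pgm1, Pgm2, Ugp2, Gyg and Epm2a) and none was lower (against 18.6%), although 2 were lower with quantile normalisation and 2 with voom. The median difference was 0.53. Pygl, liver glycogen phosphorylase, was at 15.55, 15.33, 15.38, 16.08 and 15.47 in Damaraland and at 13.36 and 13.99 in mouse, a ratio of 3.69. Gys2, liver glycogen synthase, was at 10.89 to 11.36 against 11.17 and 11.86, so the species overlapped (difference -0.43, adjusted p 0.0929).

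Glycolysis and gluconeogenesis genes were called in both directions. Of 28 tested, 9 were higher (32.1%, against 22% of all tested genes) and 8 lower (28.6%, against 18.6%). Several steps with tissue-specific forms moved in opposite directions. Ldhb was higher by 3.20 and Ldha lower. Pfkl, the liver phosphofructokinase, was higher and Pfkm, the muscle form, was lower. Eno3 was higher by 3.85, while Aldoc, Aldoa and Pgk1 were lower. Slc2a2, the liver glucose transporter, and Pck2 were higher.

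Tpi1, triosephosphate isomerase, a core enzyme of glycolysis, had 0 reads in all 5 Damaraland livers and 12286 reads over the 2 mouse livers. It also had 0 reads in every Damaraland heart, against 41855 over the mouse hearts. The livers of the guinea pig and naked mole-rat held it at means of 11.29 and 11.88. Against 3 reads over the group, Tpi1 was at least 9492-fold lower in Damaraland liver. Whether these zeros are a property of the tissue or of the gene models used for counting was not tested.

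In fructose and polyol metabolism, 2 of 9 tested genes, Glyctk and Slc2a8, were higher (22.2%, against 22% of all tested genes). Another 1, Sord, was lower (11.1%, against 18.6%). Khk, ketohexokinase, did not differ past the threshold (0.36, SE 0.25). Slc2a5, the fructose transporter, was at 9.74, 9.43, 8.93, 7.98 and 7.59 in Damaraland and at 7.25 and 7.85 in mouse, with a difference of 1.19 (adjusted p 0.0604). Damaraland replicate 5 was below the higher mouse. Without replicate 5 the Slc2a5 difference was 1.47 (adjusted p 0.0147) and 5 of the 9 genes were called, without replicate 4 it was 1.38 (0.0353), and in the fit with a replicate block it was 1.65 (0.0046) with 5 genes called. Slc2a8 was called at 1.24 and was at 0.997, under the size limit, without mouse replicate 2.

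Nuclear genes of oxidative phosphorylation were lower or not called. Of 51 tested subunit genes, 17 were lower (33.3%, against 18.6% of all tested genes) and none was higher, although quantile normalisation called 1 higher, and the median difference was -0.79 against 0.06 over all genes. The lower genes came from complexes I to V: Ndufs6, Ndufb9 and Ndufa6 of complex I, Sdha of complex II, Uqcrb and Uqcrfs1 of complex III, Cox4i1, Cox5a and Cox8a of complex IV, Atp5j and Atp5g3 of the ATP synthase, and the electron carrier Cycs. Uqcrb had the largest of these differences, at -2.07. Of 23 tested genes that maintain and express mitochondrial DNA, Polrmt, the mitochondrial RNA polymerase (difference 3.01), Esrra and Hsd17b10 were higher and Mterf3 was lower. Those shares of 13.0% and 4.35% lie under the 22% and 18.6% of all tested genes.

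Reads on the 12 mitochondrially encoded genes made up 0.0137, 0.0034, 0.0051, 0.0054 and 0.0172% of reads in the Damaraland livers and 5.74 and 2.88% in the mouse livers. The mean was 0.0089% against 4.31%, and the groups were separate (exact two-sided permutation p 0.0952, the smallest that 5 against 2 allows). All 12 genes were lower in every Damaraland liver, the hearts showed the same gap (0.00565 to 0.0279% in Damaraland and 22.4 to 25.6% in mouse), and the livers of the guinea pig and naked mole-rat had 4.04 to 7.08%. How these genes were counted in Damaraland is not given in the sources used here, so a difference in transcripts and a difference in counting cannot be told apart.

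Cytosolic ribosomal protein genes were mostly not called: of 56 tested, 9 were higher (16.1%, against 22% of all tested genes) and 2 lower (3.57%, against 18.6%). Rpl12 (4.03), Rpl5 (3.54) and Rps27 were among the higher and Rpl23 (-2.40) and Rps14 (-1.03) were the lower. Rps14 fell under the size limit without Damaraland replicate 5 (-0.938) or mouse replicate 2 (-0.952). Rpl41 was not in that list: it was at 5.94 to 6.65 in Damaraland and at 12.67 and 12.61 in mouse, 154-fold lower, and the naked mole-rat and guinea pig livers were also low, at means of 5.51 and 5.04. Ribosomal protein genes have many processed copies, which makes their counts uncertain across species. Of 37 proteasome genes 1 was higher, Psmb3 (2.70%, against 22% of all tested genes), and 4 were lower (10.8%, against 18.6%). The lower genes included Psmb9, Psmb10 and Psme2, which form or activate the immunoproteasome. Without mouse replicate 2, 3 proteasome genes were called and Psmb3 was no longer among the calls (0.79), nor was it without Damaraland replicate 1 (0.947) or 3 (0.997).

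Among secreted plasma proteins, 7 of 25 carriers and acute-phase genes were higher (28%, against 22% of all tested genes). Another 5 were lower (20.0%, against 18.6%), and the median difference of the list was 0.40. A2m, a broad protease inhibitor of plasma, was at 14.98, 16.28, 15.36, 16.55 and 16.24 in Damaraland and at 5.57 and 4.96 in mouse, a ratio of 6260. The mouse mean of A2m was under 5.29, and the ratio was 15016 without mouse replicate 1 and 3954 without mouse replicate 2. Serpina7, a thyroid hormone carrier, Hrg, Itih3, Ambp, Apcs and Hp were also higher. Crp, the pattern-binding pentraxin, was at 4.29, 4.29, 4.56, 4.29 and 4.87 against 12.41 and 12.36, with both mice far above every Damaraland liver. Lrg1, Saa4, Serpina6 and Azgp1 were the other lower genes. A2m in rodents has close relatives that may share reads.

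Complement genes numbered 5 higher (23.8%) and 4 lower (19%) of 21 tested, near the 22% and 18.6% of all tested genes. Fcnb, among the higher genes, had 0 reads in both mice and passed the filter through Damaraland alone. Mbl2, a lectin that starts complement activation on microbes, was at 15.14 to 16.03 in Damaraland and at 11.98 and 12.53 in mouse, a ratio of 10.4. C7 of the membrane attack complex was higher by 3.40, and C8a and C8g of the same complex were lower. C4bp, an inhibitor of the classical route, was lower, with a difference of -1.73. Of 26 coagulation genes, 5 were higher (19.2%, against 22%), including the plasminogen activators Plau (3.49) and Plat (2.14). Plat was at 4.99 and 4.96 in mouse. Another 3 were lower (11.5%, against 18.6%), Proz, Klkb1 and F3. The other 18 tested clotting genes, those of fibrinogen among them, were not called.

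Of 21 interferon and innate sensing genes, 8 were lower (38.1%, against 18.6% of all tested genes) and 3 higher (14.3%, against 22%). Ifit3 (-3.38), Rsad2 (-3.11), Irf7 and Oasl2, which respond to interferon, were lower, and the receptors Tlr3 and Tlr4 and the adaptor Myd88 were higher. Of 15 immediate early and heat shock genes, 6 were higher (40.0%, against 22%), with Gadd45g (2.94) and Hspb1 (2.89) in front. Jun (-1.64) was lower (6.67%, against 18.6%).

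Of 23 NRF2 target and glutathione genes, 6 were higher (26.1%, against 22% of all tested genes) and 4 lower (17.4%, against 18.6%). Nqo1, a quinone reductase, was at 9.53 to 9.86 in Damaraland and at 6.42 and 6.44 in mouse. Gclc and Gclm, the subunits that limit glutathione synthesis, were both lower, as were Txn1 and Gpx4. Of 18 hypoxia-response genes, 4 were higher (22.2%, against 22% of all tested genes) and 6 lower (33.3%, against 18.6%). The higher genes were Ddit4 (3.32), Ndrg1 and the oxygen-sensitive subunits Hif1a and Epas1 (1.44). Egln3 (-3.49), Vhl and Hif1an, which restrain those subunits, were lower, and so were Mxi1 (-3.08), P4ha1 and Bnip3l. In 2 of the 18, Egln3 and Mxi1, the Damaraland mean was under 5.29.

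Iron genes numbered 4 higher (20.0%, against 22% of all tested genes) and 5 lower (25%, against 18.6%) of 20 tested. Id1, a target of BMP signalling, was higher by 3.48, while the ligands Bmp2 and Bmp6 were lower. Slc11a2, an iron importer, was lower (-2.96) and Steap3, a ferrireductase, higher (2.43). Ireb2, a translational iron sensor, was lower (-1.49).

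Hepatocyte transcription factors were mostly not called. Of 31 tested, 3 were higher (9.68%, against 22% of all tested genes), Hnf4g and Atf5 among them. Another 6 were lower (19.4%, against 18.6%), among them Esr1, Tbx3, Xbp1, Foxa3 and Stat5b. Esr1, the oestrogen receptor, was at 5.05 to 5.72 in Damaraland and at 9.14 and 9.31 in mouse. Atf5, a stress-responsive factor, was at 15.22, 12.56, 13.86, 13.31 and 11.62 in Damaraland against 11.70 and 11.18, with replicate 5 below the higher mouse. Its difference of 1.87 (adjusted p 0.0251) was not called without mouse replicate 1 (adjusted p 0.0676) or mouse replicate 2 (adjusted p 0.162).

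Clock genes numbered 4 higher (22.2%, against 22% of all tested genes) and 5 lower (27.8%, against 18.6%) of 18. Npas2 (4.12), Cry1 (2.06), Arntl and Per1 were higher and Nr1d1, Dbp, Hlf, Bhlhe41 and Clock lower. In 2 of the 18 the mean of 1 species was under 5.29, Npas2 among them, at 5.33 and 4.29 in mouse. Dbp was at 7.27 to 9.22 against 9.91 and 11.05, a difference of -1.94 that was -1.36 with an adjusted p of 0.158 without mouse replicate 2. Collection times are not in the labels, so the time of day of sampling cannot be told apart from species here.

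Ahnak, a giant scaffold protein, was higher by 2.23 and Macf1, a giant cytoskeletal linker, was lower (-2.94), at 9.13, 9.66, 9.18, 9.28 and 10.06 in Damaraland against 12.53 and 12.28 in mouse. Cyp8b1 and Hamp, which had been chosen for naming, were not analysed here.

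Markers of other cell types were counted and summed. In bulk tissue, fewer cells of a type and less RNA per cell cannot be told apart. Of 14 endothelial markers, 3 were higher (Lyve1, Stab1 and Stab2, of the sinusoid) and 1 lower (Bmp2), shares of 21.4% and 7.14% that lie near or below the 22% and 18.6% of all tested genes. Their summed scaled reads were 14307 to 16356 in Damaraland and 8140 and 10088 in mouse. Of 9 cholangiocyte markers, 4 were higher (44.4%) and 2 lower (22.2%), with sums of 2389 to 3309 against 1862 and 1945. Of 13 stellate and fibroblast markers, 4 were higher (30.8%) and 3 lower (23.1%), with sums of 10764 to 14990 against 8252 and 8631. Of 6 macrophage markers, Cd68 and C1qc were higher (33.3%) and Cd163 and Cd5l lower (33.3%), and the sums overlapped (1790.0 to 3752 against 3025 and 3558).

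Sums for these sinusoidal, biliary and stromal lists were thus higher in every Damaraland liver. The hepatocyte sum was higher in each of them too, at 1742430 to 2464392 against 1324979 and 1475667 in mouse. Whether the shares of cell types differed, and what part this had in the differences above, was not tested. For erythroid markers only Alas2 of 3 in the table was tested, and it was lower (-4.29). The erythroid sum was 37.9 to 111 in Damaraland and 1558 and 1953 in mouse. Of 9 tested muscle, fat and pancreas markers, Plin1 (5.84), Adipoq (2.58), Mb (1.63) and Ckm (1.15) were higher (44.4%, against 22% of all tested genes). Cela1, a pancreatic elastase gene with 0 reads in Damaraland, was lower (11.1%, against 18.6%). The sum of this list was 2627 to 6053 in Damaraland and 1227 and 1929 in mouse. Of lymphocyte markers Jchain was higher of 3 tested, the sum was 231 to 459 against 209 and 214, and Mzb1 was at 0 in mouse, as were Tnnt3 and Cpa1 of the muscle and pancreas markers.

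A set of genes had next to no reads in the livers of 1 species, which shows the counts and not whether the genes are silent. With at most 3 reads over all livers of a species and a mean of at least 100 scaled reads in the other, 27 genes had few or no reads in Damaraland and 133 in mouse. The limit of 3 reads is 0.569 scaled reads over the 5 Damaraland livers and 1.35 over the 2 mouse livers, so it was looser for mouse and the counts are not comparable. Besides Tpi1, the first set held Rab18, a small GTPase of lipid droplets, Stk24, a kinase, Pfdn1, a subunit of a chaperone complex, and Ccng2, a cyclin, each with 0 reads in the Damaraland livers and 6517, 1321, 636 and 658 over the mouse livers. Of the 27, 6 had at least 100 scaled reads in mouse heart, and all 6 had at most 3 reads over the Damaraland hearts too. Of the 133, 46 had at least 100 scaled reads in Damaraland heart, and 8 of those had at most 3 reads over the mouse hearts.

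Among the 133, Cbr2, a carbonyl reductase, had 197075 reads over the Damaraland livers and 1 over the mouse livers. Dao, D-amino acid oxidase, had 24175 and 1. Shbg, the sex hormone carrier of plasma, had 4298 and 0, at least 622-fold higher in Damaraland. Apela, a secreted peptide, had 9648 and 0, and Dpp6, a potassium channel partner, 10013 and 0. These genes were singled out after their values were seen.

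The levels in the other species of the study are given as a description. For Phgdh, Psat1, Igf2, Cyp1a1 and Sorl1, the naked mole-rat and guinea pig livers lay near or above the Damaraland level and far from mouse. Phgdh had means of 12.59 and 12.66 in those species and Igf2 had 14.83 and 13.91. For Erbb2 and Slc39a5 the naked mole-rat was near Damaraland (11.78 and 11.41) and the guinea pig lower (7.31 and 7.81). For Kif26a the Damaraland livers stood alone, with means of 6.55 in naked mole-rat and 6.51 in guinea pig, and for Pnpla3 likewise, with 7.25 and 5.03. Among lower genes, Dio1 was at means of 11.39 in both other species, Acacb at 11.46 and 6.21, and Cyp7b1 at 12.13 and 6.64 in naked mole-rat and guinea pig.

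**Figure D4:**
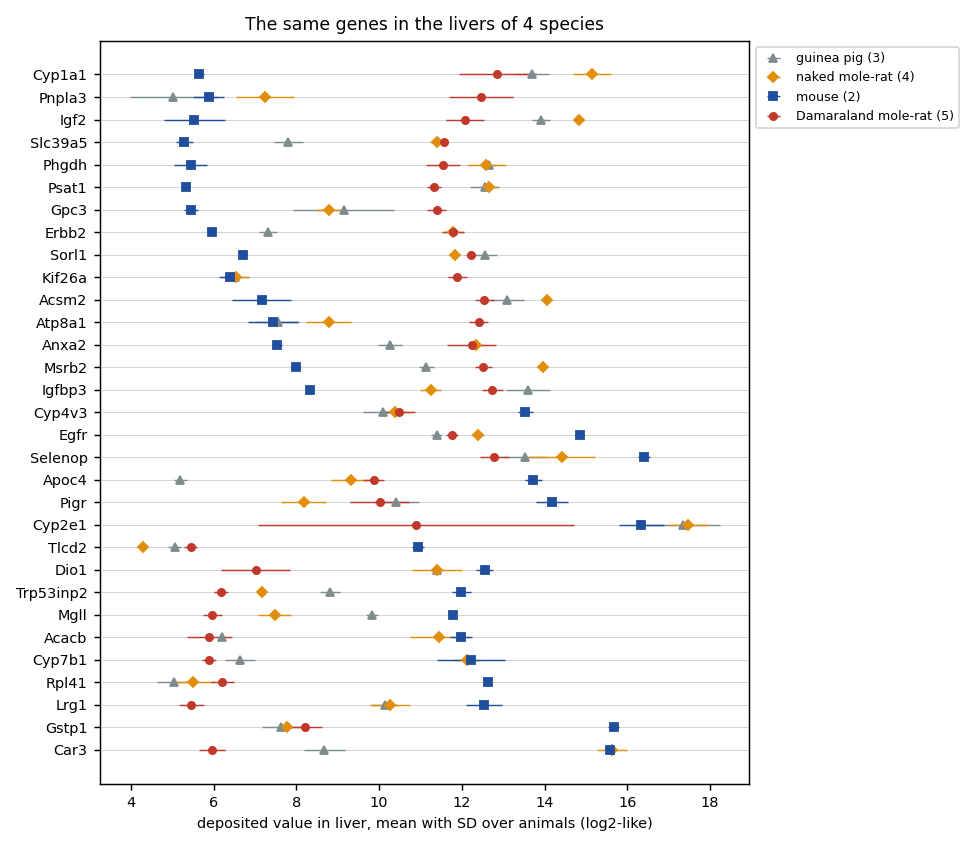
Mean deposited value with SD over animals (horizontal axis, log2-like) in the livers of guinea pig (3), naked mole-rat (4), mouse (2) and Damaraland mole-rat (5), for the named genes with the largest differences and the most abundant ones. Mouse stands alone at the low end for Phgdh, Psat1 and Igf2, Damaraland stands alone at the high end for Kif26a and Pnpla3, and the wide Damaraland bar at Cyp2e1 comes from values of 7.55 to 15.15.

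Hearts of the same species were set beside the liver values, without a test. Several Damaraland hearts and a mouse heart came from animals whose livers are compared here, so the tissues are not independent. In heart the libraries of Damaraland (5) and mouse (3) did not overlap for 66.3% of genes with a mean at least 1 above 5.36, the heart value of 0 reads. That limit was not applied to the genes counted next. Dio1 and Pnpla3 were low in the hearts of both species, at 5.54 to 6.08 and 5.58 to 6.51, so their overlap says little. Of the 10 largest increases in liver, 4 were also separated in the same direction in heart (Slc39a5, Phgdh, Psat1 and Erbb2) and 6 overlapped. Of the 10 largest decreases, 6 were separated in the same direction (Tlcd2, Trp53inp2, Rpl41, Acacb, Lrg1 and Gstp1), 3 overlapped and Cyp7b1 was separated in the opposite direction. The tables of the tissues were normalised separately, so sizes are given side by side only: Trp53inp2 was at -5.81 in liver and -6.55 in heart, Rpl41 at -6.43 and -6.30, and Pygl at 1.89 and 7.31.

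The Damaraland livers varied among themselves for a small group of genes, named here after their values were seen. Next to Cyp2e1, Slc13a4, a sulphate transporter, was at 11.11 and 11.24 in replicates 1 and 5 and at 5.76 to 6.10 in the others. Cux2, a transcription factor known for sex-biased expression in rodent liver, was at 4.77, 4.98 and 4.90 in replicates 1 to 3, 7.78 in the female replicate 4 and 11.12 in the male replicate 5. Neither gene was called between species (adjusted p 0.0792 and 0.242). Hpgd, which inactivates prostaglandins, was lowest in replicate 5, at 8.11 against 10.83 to 11.99. Asns, which makes asparagine, was at 8.95 and 8.80 in replicates 1 and 3 and at 5.73 to 6.65 in the others. The median SD over the 5 Damaraland livers was 0.23 across tested genes.

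**Figure D5:**
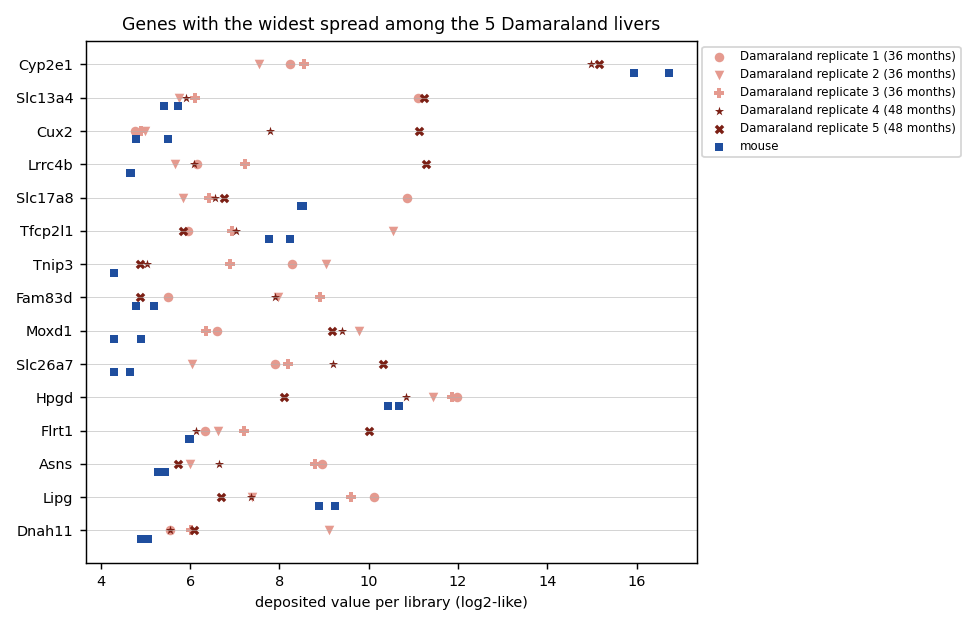
Deposited value in each library (horizontal axis, log2-like) for the 15 tested genes with the largest SD among the 5 Damaraland livers, in light red for animals labelled 36 months, dark red for 48 months and blue for mouse. Cyp2e1 separates the liver age labels (7.55 to 8.55 against 14.98 and 15.15), though the age of replicate 3 is uncertain. In Slc13a4 replicates 1 and 5 lie apart from the rest.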

How the data were processed

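Total RNA depleted of ribosomal RNA was sequenced from 28 heart and liver samples of 4 rodent species, and 14 liver libraries entered the fit. Per the submitters' processing notes, the authors used cutadapt, Salmon 013.1, DESeq2 and the build GRCm38. The deposited values are variance-stabilised and on a log2-like scale. Reading the transform backwards gave whole reads for 100% of values within 1e-06. A further 26 columns belonging to other series were not used. Of the 13928 gene identifiers, 13921 were matched to a symbol.

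The deposited log2 values were fitted with limma 3.58.1 (R 4.3.3): species means, moderated variances with a trend on the mean, and p-values adjusted by Benjamini and Hochberg across the 10763 nuclear genes with a mean over the 7 libraries of at least 5.2893. The 14 livers shared the estimate of spread, because mouse had 2. The mitochondrial share was compared by an exact two-sided permutation test. On data simulated for this comparison (11222 genes), the fit called 7 of 100 genes changed 2-fold, 76 of 96 changed 4-fold and 3 of 11026 unchanged genes. A call needs a difference of at least 1, and a 2-fold step was worth 0.392 from 10 scaled reads and 0.973 from 1000. The low 2-fold count thus follows mostly from the size limit and does not measure the power of the fit. A gene not called may still differ by 2-fold.

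Named genes were the 10 largest differences in each direction among called genes with both species means above that limit and no overlap, the 6 largest in each direction among the most abundant, the 2 largest in each direction of each of 29 lists, and 17 chosen genes; some of these are not reported here. Members, lists and names were chosen with earlier results of these data known. Lists have no test of their own. Alternatives covered thresholds, filters, scaling, variance models, voom, a replicate block, leaving out each library and, chosen after seeing the data, leaving out the 48-month Damaraland livers and recomputing each ratio of scaled reads without each library.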

Additional observations from a re-analysis of the deposited data

Results flagged for a closer look

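Of 131 measures checked among the 5 Damaraland livers, 5 had a library far from the other 4 by Dixon's test, where chance gives about 1 in 20. Replicate 4 was the lowest for Elovl3, at 4.29, and the highest for C8a, at 13.43. Replicate 5 was the lowest for Uqcrb, at 8.31, and for Txn1, at 9.63. Replicate 2 was the highest for Hnf4g, at 7.46.

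For 12 of the 130 named genes, every Damaraland library lay on 1 side of every mouse library in liver and on the opposite side in heart, and the difference between tissues was not tested. The share of such genes among all genes was not computed, so the count of 12 has no background. Species were separated in 69.3% of tested genes in liver and 66.3% in heart, and most named genes were chosen for their liver difference. Lipid and methyl metabolism gave Cyp7b1, at -6.33 in liver and 1.64 in heart, Cyp4v3, at -3.06 and 1.10, Apoa1, at -2.29 and 3.93, and Gnmt, at -2.36 and 1.20. Sugar metabolism gave Eno3, the muscle enolase, at 3.85 in liver and -1.10 in heart, Aldoc, at -2.90 and 1.67, and Slc2a8, at 1.24 and -1.70. Redox genes were Msrb2, at 4.53 in liver and -2.44 in heart, Nqo1, at 3.27 and -1.34, and Gclc, at -2.14 and 0.82. Steap3 was at 2.43 and -1.13, and Myd88 at 1.18 and -0.76. Slc2a8 lost its call in liver without mouse replicate 2, where its difference was 0.997.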

How the results depend on the processing

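The count of called genes was 4366 and stayed between 4277 and 5043 under array weights, centring, quantile normalisation, no filter, no variance trend, robust moderation, the 7 libraries alone and voom, and was 3471 with both species required above the limit. It was 1521 with a difference of at least 2, 2342 with limma's treat against a difference of 1, 2539 among genes above the median gene and 6973 with no size limit. Leaving out 1 library gave 4249 to 4400, and leaving out the 48-month Damaraland livers gave 4331. With a replicate block 4370 genes were called. Replicate numbers of different species mark different animals, and the deviations of same-numbered livers correlated at -0.085 and -0.007, so the numbers pair nothing. Higher genes made up 48.3 to 56.0% of calls.

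Of 2946 values of 130 named genes under these alternatives, 2873 kept direction and side of the threshold, 61 lost the call, 11 gained it and 1 turned direction. Most of these genes were chosen for their liver difference, and several alternatives leave the difference itself unchanged. Most calls were therefore likely to hold, and the counts do not describe genes in general. Hnf4a, at 0.11, ran from -0.0244 without mouse replicate 1 to 0.253 without mouse replicate 2. Depth limits what can be said of genes near 0 reads, and 2 mouse livers limit the precision of every difference.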

Other observations

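Another 5 genes with very large differences, of which Cbr2 is named above, were picked after their values were seen. Whether their gaps lie in transcripts or in how reads were assigned to genes was not tested. Ccnb1ip1, a gene of meiotic recombination, was at 4.29 to 5.03 in Damaraland liver and at 15.42 and 16.24 in mouse liver, the largest difference of all tested genes in size (-11.02), and in heart it had means of 5.73 and 15.34. The naked mole-rat and guinea pig livers were also near 0 reads for it, with means of 4.29 and 5.28. Its mean scaled reads were 60409 in mouse liver and 3.17 in Damaraland liver. Cmah, which makes a hydroxylated sialic acid, was at 4.96 to 5.16 against 12.50 and 12.87, and was low in the other livers too, at means of 6.0 and 5.30. Creb5, a transcription factor, was at 4.76 to 5.25 against 12.55 and 12.80.

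Dnaja1, a chaperone found in most cells, was at 4.29 to 4.76 in Damaraland and at 11.37 and 12.78 in mouse. Its naked mole-rat mean was 11.32 and its guinea pig mean 4.81, and in heart the means were 5.41 in Damaraland and 10.02 in mouse. Cbr2 was at 13.55 to 15.99 in Damaraland liver and at 4.29 and 4.57 in mouse, with means of 4.92 in naked mole-rat and 6.40 in guinea pig, while its heart means were 6.90 in Damaraland and 7.91 in mouse.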
